A study of Mus musculus with 6 samples.

Results

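The genes described here were the mouse translation initiation factors, taken as every row of the count table whose symbol read Eif, a digit from 1 to 6 and any further letters or digits, with rows marked as pseudogenes left out. That rule took 58 of 37043 symbols, and 57 of them were among the 16675 genes with enough reads to be tested. The untested symbol, Eif2c5, held 1 read in the IL-3-stimulated library 3 and none elsewhere. It is annotated as a long noncoding RNA, and its name belongs to another gene family.

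All 6 libraries came from bone marrow-derived basophils (BMBAs) of C57BL/6J wild-type mice, a primary culture rather than a cell line. Bone marrow cells had been kept for 7 days in a low concentration of the cytokine, 0.3 ng/mL IL-3 per the study's methods, and basophils were then enriched on beads through CD49b. The enriched cells received either PBS, the control, or 10 ng/mL IL-3 for 6 h. Each group held 3 libraries. The PBS group was a control that had itself already been grown in IL-3. Effects of the added IL-3 and of its lower level or absence in PBS after that culture cannot be told apart. The labels do not say whether the cultures came from separate mice, so the p-values measure the spread between these libraries.

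Initiation is the step of protein synthesis at which a small ribosomal subunit, carrying the initiator tRNA, is brought to an mRNA and placed at its start codon. eIF2 delivers the initiator tRNA in a GTP-dependent complex, eIF2B recharges eIF2 with GTP, and eIF1, eIF1A, eIF3 and eIF5 assemble around the small subunit. The eIF4F complex (the cap-binding eIF4E, the scaffold eIF4G and the helicase eIF4A) recruits the mRNA, and eIF5B and eIF5A act at subunit joining and in peptide bond formation. IL-3, a growth factor for basophils and mast cells, signals through receptors that activate STAT5 and the PI3K and mTOR pathways, and mTOR in turn controls eIF4E through the 4E-binding proteins by phosphorylation, which mRNA counts do not show.

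Depth was similar in the groups, at 10537540 to 13999287 counts per library. Mcpt8, Cd200r3, Ms4a2, Itga2 and Gata2 among the 7 basophil markers were called higher and Fcer1a lower (log2 difference -0.50), and together the 7 summed to 10165 to 11342 CPM (read counts scaled to a common library size) in PBS and 15181 to 15369 in IL-3. The 8 monocyte and macrophage markers, which mark other cells of a marrow culture, summed to 11459 to 12367 CPM in PBS and 6019 to 6630 in IL-3. Most of that sum was Lyz2, with means of 10456 and 5348 CPM, and 5 of the 8 were called lower while Ly6c2 (1.29) and Adgre1 (0.53) were called higher. The 6 mast cell markers summed to 840 to 945 and 1437 to 1571 CPM. The neutrophil markers summed to 108 to 154 and 182 to 237 CPM. The largest part of that rise was Retnlg (log2 difference 2.61), whose mean went from 11.3 to 69.2 CPM. Lcn2 was also called higher (0.47), Mpo was called lower (-0.63), and S100a8 and S100a9 were not called. The erythroid markers summed to 95.6 to 214 and 51.4 to 97.0 CPM, with Alas2 at 0 in every library. Among these, Hba-a1 (-1.14) and Hba-a2 (-1.13) were called lower, while Hbb-bs (0.64) was not called. In bulk RNA a change in the number of cells of a type and a change in RNA per cell cannot be told apart, and the part of these marker differences in the results for the initiation factors was not tested.

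Short promoter stretches are shown for members of both directions because they share a motif that binds the MYC and MAX class of basic helix-loop-helix factors, the letters CACGTG, which are printed in capitals. Each stretch holds 30 bases, 5′ to 3′ on the strand of its gene, from the RefSeq promoter windows of GRCm38.p6, which run from 250 bases before to 50 bases after a transcription start. The first 4 belong to genes that were higher in IL-3 and the last 3 to genes that were lower. Genes with several annotated starts have several windows, and the distance given is to the start of the window in which the letters were found.

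Eif5a, chr11:69921443-69921472, minus strand, -74 from the start: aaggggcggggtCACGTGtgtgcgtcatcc
Eif4a1, chr11:69672595-69672624, minus strand, -189 from the start: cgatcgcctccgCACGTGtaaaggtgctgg
Eif4g1, chr16:20672661-20672690, plus strand, -54 from the start: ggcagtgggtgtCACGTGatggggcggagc
Eif4e, chr3:138527192-138527221, plus strand, -64 from the start: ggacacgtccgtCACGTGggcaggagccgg
Eif3f, chr7:108934335-108934364, plus strand, -68 from the start: caagatatgattCACGTGgtataaatttag
Eif3k, chr7:28981915-28981944, minus strand, -44 from the start: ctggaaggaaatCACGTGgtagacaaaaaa
Eif5a2, chr3:28781123-28781152, plus strand, -142 from the start: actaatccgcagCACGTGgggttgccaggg

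A promoter window was found for 45 of the 58 members. The letters CACGTG, which read the same on both strands, stood in 10 of these 45 genes (22.2%), against 8.09% of all 27025 genes with a window and 11.3% of the 10841 that were tested. By direction, they stood in 4 of 15 genes that were higher in IL-3, 3 of 7 that were lower and 3 of 22 that were not called. The STAT-type motif TTCNNNGAA, also palindromic, stood in 5 of 45 members (11.1%) and in 9.55% of all genes. The motif TGATGCAAT, an ATF4-type element searched on both strands, stood in 0 of 45 members and in 0.222% of all genes. These are matches of letters in a window and no measurement of binding.

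The first comparison asked how the mRNAs of the initiation factors differed between BMBAs given IL-3 and those given PBS. The members moved in both directions: 18 members were higher in IL-3, 10 were lower and 29 were not called by edgeR's quasi-likelihood test at an adjusted p below 0.05. The background was high, since 38.2% of all tested genes were called, 18.0% higher and 20.2% lower. Of the 57 members, 31.6% were higher and 17.5% lower. Without PBS replicate 3, 17 members were called higher and 4 lower. The median log2 difference (IL-3 minus PBS) of the members was 0.10, against -0.0033 over all genes, and was 0.051 without PBS replicate 1. The changes were small: no called member differed by more than 2-fold, and the median size of a called log2 difference was 0.339 among members and 0.61 among all genes.

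In 33 of the 57 members the 3 IL-3-stimulated libraries did not overlap the 3 PBS libraries. They lay above in 23 and below in 10, against 48.2% of all genes without overlap, 23.8% above and 24.4% below. With 3 libraries against 3, an exact permutation test of a single value cannot go below p = 0.1. The direction of the family as a whole depended on the scaling: with library totals in place of TMM factors the median of all genes moved by -0.163, and 8 members were higher and 17 lower. The log2 differences of single members printed here are relative to the TMM scaling, and members whose call or sign moved with the scaling are named as such.

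**Figure D1:**
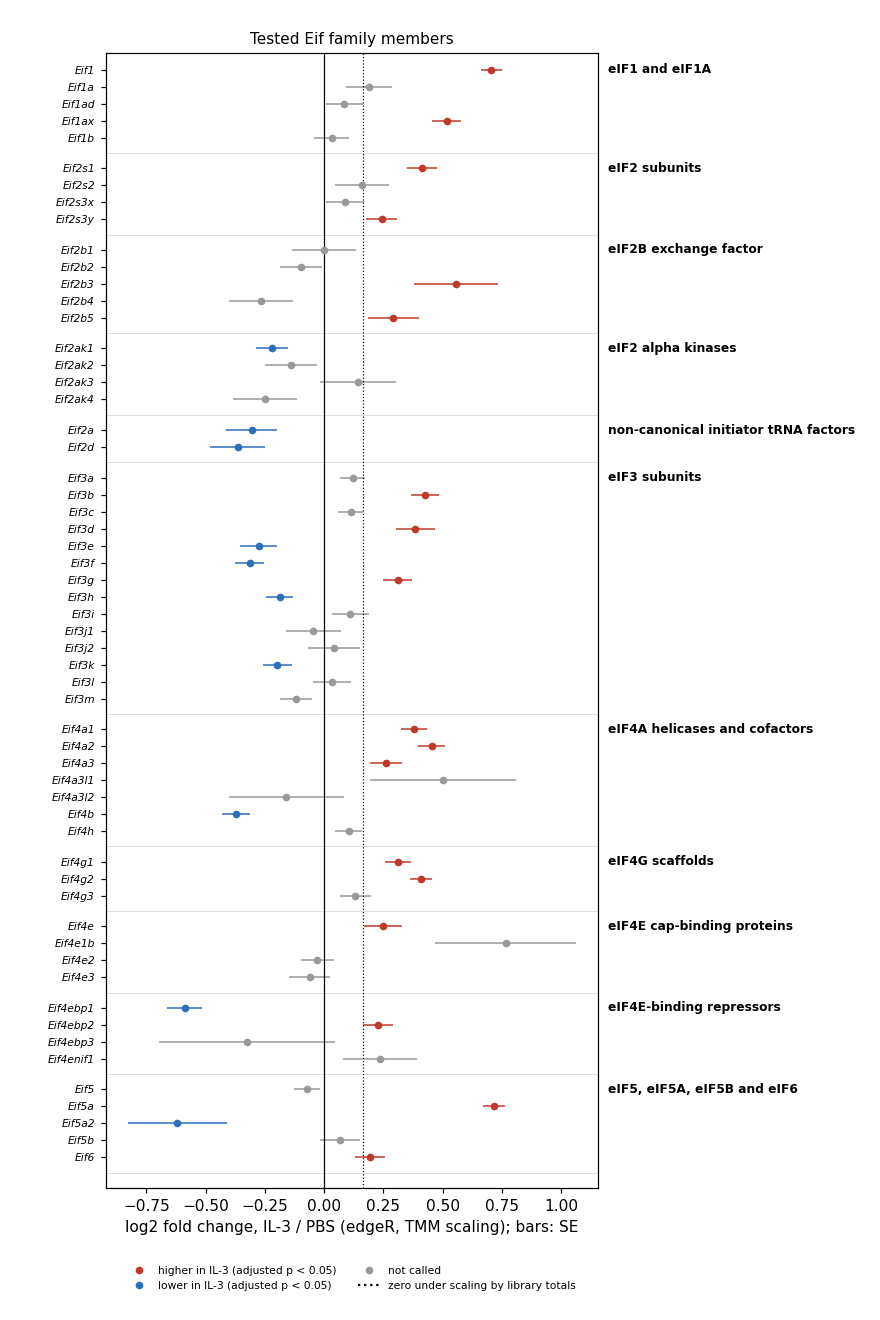
The log2 difference (IL-3 minus PBS) of the 57 tested members is plotted by factor complex, each point being a gene with its standard error as a bar and its color showing whether it was called higher, lower or neither; the dotted line marks where 0 lies by library totals. The points run from -0.62 for Eif5a2 to 0.77 for Eif4e1b, which was not called.

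The largest called increases were those of Eif5a and Eif1. Eif1 encodes the factor that guards start codon selection on the scanning subunit and lies at chr11:100319885-100322096 on the plus strand (GRCm38, GENCODE M21). Its CPM were 762, 773 and 788 in the PBS libraries and 1267, 1212 and 1310 in the IL-3 libraries. The groups did not overlap and each varied by little, at 775 ± 13.0 and 1263 ± 49.3 CPM (SD, n = 3). The log2 difference was 0.71 with a standard error of 0.0450, a fold of 1.63 (edgeR adjusted p = 3.76e-09). In its 50-base stretches, 19.2% of the Eif1 transcript recurred in other annotated transcripts, chiefly of Emd and the pseudogenes Gm10157 and Gm16378.

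Eif5a encodes the hypusine-containing factor that helps ribosomes over difficult peptide bonds and lies at chr11:69916714-69921958 on the minus strand. The PBS libraries held 357, 352 and 361 CPM and the IL-3 libraries 576, 599 and 582 CPM. Again the lowest IL-3 library stood far above the highest PBS library. The log2 difference was 0.72 with a standard error of 0.0465, a fold of 1.64 (edgeR adjusted p = 4.66e-09). These genes were also the most abundant members per length: as counts over the length of the longest annotated transcript, scaled to the same sum in each library, the level of Eif1 was 1111 ± 34.4 in PBS and 1662 ± 56.8 in IL-3 (SD, n = 3), and that of Eif5a was 471 ± 12.1 and 710 ± 21.6.

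The related Eif5a2, a second gene for the same factor that is normally expressed at low levels, went the other way. Its CPM were 6.05, 8.77 and 10.4 in PBS and 4.44, 6.08 and 5.74 in IL-3. The groups overlapped, since PBS library 1 lay below IL-3 library 2. The log2 difference was -0.62 with a standard error of 0.208 (edgeR adjusted p = 0.0275), and the adjusted p was 0.0727 without PBS replicate 2, 0.141 without PBS replicate 3 and, with IL-3 replicate 1 left out, 0.1001. The ratio of Eif5a to Eif5a2 in the same library, which needs no scaling between libraries, was 2.50 times as large in IL-3 (log2 difference 1.32), and no library of one group reached the other (exact permutation p = 0.1, the smallest possible, adjusted p = 0.156 over 14 ratios).

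Among the other members of the eIF1 and eIF1A group, Eif1ax, the X-linked gene for eIF1A, rose. Its CPM were 66.7, 71.0 and 65.9 in PBS and 97.9, 96.7 and 96.8 in IL-3, and every IL-3 library was above every PBS library. In the fit, Eif1ax differed by 0.52 on the log2 scale, with a standard error of 0.0609 (edgeR adjusted p = 5.02e-06). The remaining 3, the eIF1A paralog Eif1a (0.19), the eIF1 paralog Eif1b (0.03) and the eIF1A-domain gene Eif1ad (0.09), did not pass the test, and the log2 differences of Eif1b and Eif1ad were below 0 when scaled by library totals. Within a library, Eif1 gained on Eif1b by 0.67 on the log2 scale and Eif1a lost to Eif1ax by 0.32 (difference -0.32), both without overlap between the groups (exact permutation p = 0.1 each, adjusted p = 0.156).

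**Figure D2:**
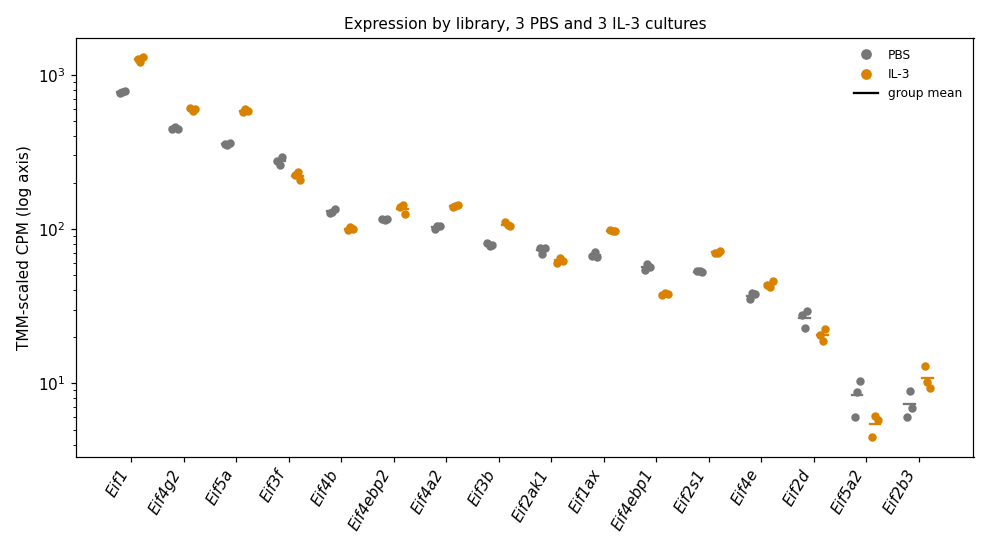
CPM of the 16 members chosen by rule are plotted in each of the 6 libraries, on a log axis with a point per library and a short line at the mean of each group. For Eif1 the 3 PBS points lie at 762 to 788 CPM and the 3 IL-3 points at 1212 to 1310 CPM, while for Eif4ebp1 the IL-3 points at 37.2 to 38.2 CPM lie below the PBS points at 54.6 to 59.4 CPM.

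The eIF2 trimer consists of an alpha, a beta and a gamma subunit, and 2 of its 4 tested genes rose, or 1 by library totals, against 18.0% of all genes. Eif2s1 encodes the alpha subunit, whose phosphorylation shuts down most initiation under stress. Its CPM were 53.2, 53.0 and 52.7 in PBS and 69.7, 70.1 and 71.5 in IL-3, so the spread within each group was small beside the distance between them. A log2 difference of 0.41 was fitted, with a standard error of 0.0640 (edgeR adjusted p = 9.10e-05). Eif2s3y, the Y-linked gene for the gamma subunit, was 0.24 higher on the log2 scale (edgeR adjusted p = 0.00874), and 0.08 with an adjusted p of 0.403 when scaled by library totals. Its X-linked counterpart Eif2s3x (0.09) and the beta subunit gene Eif2s2 (0.16) did not pass the test; both were near or below 0 by library totals. Without PBS replicate 2, Eif2s2 passed the test at a log2 difference of 0.31 (edgeR adjusted p = 0.0310). The ratio of Eif2s3x to Eif2s3y had overlapping groups (log2 difference -0.15, exact permutation p = 0.3). Of the 50-base stretches of Eif2s3x, 34.6% recur in other transcripts, chiefly of Gm2223, against 0% for Eif2s3y. The reads of Eif2s3x may be split, which makes its count and this ratio uncertain.

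eIF2B, the exchange factor for eIF2, has 5 subunits. Eif2b3, its gamma subunit, measured 6.05, 8.94 and 6.87 CPM in PBS and 12.8, 10.2 and 9.31 CPM in IL-3. The IL-3 libraries were all higher, but the lowest of them lay close to PBS library 2. Its log2 difference was 0.56 with a standard error of 0.178 (edgeR adjusted p = 0.0216), and the adjusted p was 0.0942 without PBS replicate 1, 0.0629 without PBS replicate 3, 0.114 without IL-3 replicate 1 and 0.0995 by library totals. The catalytic subunit Eif2b5 was 0.29 higher (edgeR adjusted p = 0.0433). That call was lost when any library other than PBS replicate 3 was left out (adjusted p from 0.0501 to 0.173). It was also lost with iterated TMM (0.0623), in the DESeq2 Wald test (0.0583), with the replicate block (0.0554) and by library totals (0.412). Eif2b1 (log2 difference -0.00042), Eif2b2 (-0.10) and Eif2b4 (-0.27) did not pass the test. By library totals, Eif2b2 and Eif2b4 were called lower.

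The 4 eIF2 alpha kinases each sense a different stress and phosphorylate Eif2s1. The heme-regulated kinase Eif2ak1 had CPM of 75.2, 68.6 and 75.1 in PBS and 60.4, 65.3 and 61.9 in IL-3, with all IL-3 libraries lower. For this kinase the log2 difference was -0.22 with a standard error of 0.0675 (edgeR adjusted p = 0.0162). Its adjusted p was 0.0575 without PBS replicate 1, 0.0534 without PBS replicate 3, 0.0576 without IL-3 replicate 1 and 0.0520 without IL-3 replicate 3. The RNA-activated kinase Eif2ak2 (-0.14), the endoplasmic reticulum kinase Eif2ak3 (0.14) and the amino acid-sensing kinase Eif2ak4 (-0.25) did not pass the test, although Eif2ak2 and Eif2ak4 were called lower by library totals, where Eif2ak3 was at -0.02. The ratio of Eif2s1 to Eif2ak4 was higher in every IL-3 library than in any PBS library (log2 difference 0.66, exact permutation p = 0.1, adjusted p = 0.156).

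Eif2d and Eif2a encode factors that can deliver initiator tRNA without eIF2, as does the DENR and MCTS1 pair outside the rule. Denr was called higher (0.28) and Mcts1 (-0.06) was not called. Denr lost its call by library totals (0.11, adjusted p = 0.393). It also lost it without PBS replicate 1 (adjusted p = 0.1435), PBS replicate 3 (0.0690), IL-3 replicate 2 (0.150) or IL-3 replicate 3 (0.0550). Eif2d and Eif2a were both called lower in IL-3, against 20.2% of all genes, but neither was without PBS replicate 3. Eif2d measured 27.6, 22.9 and 29.3 CPM in PBS and 20.5, 18.9 and 22.4 CPM in IL-3, with the highest IL-3 library just under the lowest PBS library. Eif2d had a log2 difference of -0.36 with a standard error of 0.115 (edgeR adjusted p = 0.0200). It was no longer called without PBS replicate 1 (adjusted p = 0.0606), PBS replicate 3 (0.0876) or IL-3 replicate 2 (0.0879). Eif2a was -0.31 on the log2 scale (edgeR adjusted p = 0.0347), and lost that call in DESeq2 (adjusted p = 0.0501) and with PBS replicate 2 (0.0866), PBS replicate 3 (0.112), IL-3 replicate 1 (0.0544) or IL-3 replicate 3 (0.180) left out.

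eIF3 is the largest initiation factor, a scaffold on the small subunit, and 3 of its 14 genes rose (21.4%), 4 fell (28.6%) and 7 were not called, shares close to the 18.0% and 20.2% of all genes. By library totals 1 was higher and 5 were lower, and without PBS replicate 3 or IL-3 replicate 2 the genes called lower numbered 2. Eif3b, the subunit that anchors the peripheral module with Eif3g and Eif3i, lies at chr5:140419328-140443360 on the plus strand. Its CPM were 81.6, 78.0 and 78.8 in PBS and 111, 105 and 104 in IL-3. The IL-3 libraries were all above the PBS libraries, with a log2 difference of 0.43 and a standard error of 0.0593 (edgeR adjusted p = 3.00e-05). Eif3d, a subunit that can bind the cap itself, rose by 0.39 (edgeR adjusted p = 0.00175), and Eif3g, an RNA-binding subunit, by 0.31 (edgeR adjusted p = 0.000784). By library totals these last 2 differences were 0.22 and 0.15 and were not called, at adjusted p of 0.0554 and 0.0904.

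Eif3f, at chr7:108934417-108942951 on the plus strand, encodes a subunit of the core. The PBS libraries held 275, 262 and 292 CPM and the IL-3 libraries 225, 236 and 207 CPM. Every IL-3 library was below every PBS library, and the log2 difference was -0.31 with a standard error of 0.0613 (edgeR adjusted p = 0.000744). Also in the core, Eif3e fell by 0.28, Eif3h fell by 0.19 and Eif3k fell by 0.20 on the log2 scale (edgeR adjusted p = 0.0107, 0.0147 and 0.0169). Without PBS replicate 3 the adjusted p of Eif3e was 0.0583 and that of Eif3h 0.0502, and without IL-3 replicate 2 that of Eif3h was 0.0742. Eif3k was at 0.0759 without PBS replicate 2, 0.0501 without IL-3 replicate 2 and 0.0761 without IL-3 replicate 3. Eif3h shares 20.3% of its 50-base stretches with other annotated transcripts, so its reads may be split.

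The uncalled eIF3 genes were Eif3a (0.12), Eif3c (0.11), Eif3i (0.11), Eif3l (0.03), Eif3m (-0.12) and the eIF3j genes Eif3j1 (-0.05) and Eif3j2 (0.04). By library totals, Eif3m was called lower and Eif3a, Eif3c, Eif3i, Eif3l and Eif3j2 were below 0. The eIF3j genes are near copies, with 90.8% of the 50-base stretches of Eif3j2 also found in Eif3j1, so their counts are uncertain one by one. The ratio between them had overlapping groups (exact permutation p = 0.4).

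Because the subunits are thought to work in a single complex, the share of each in all eIF3 reads was taken as well, a measure that does not depend on scaling between libraries. The division of the subunits into a PCI and MPN core (Eif3a, Eif3c, Eif3e, Eif3f, Eif3h, Eif3k, Eif3l and Eif3m, named for the PCI and MPN domains its subunits carry) and the other 6 genes was made after their values had been seen. None of the 8 core genes was called higher and 4 were called lower, whereas 3 of the 6 others were called higher and none lower, against 18.0% higher and 20.2% lower over all genes. By library totals 5 core genes were called lower and, of the others, Eif3b alone was called higher, and without PBS replicate 3 or IL-3 replicate 2 the core genes called lower numbered 2. The core took 77.4%, 77.6% and 77.4% of eIF3 reads in the PBS libraries and 72.5%, 72.7% and 73.0% in the IL-3 libraries. The others took 22.6%, 22.4% and 22.6% in PBS and 27.5%, 27.3% and 27.0% in IL-3.

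Within the core the subunits did not move as one. The share of Eif3f went from 18.2% ± 0.864 to 14.7% ± 0.550 (SD, n = 3), while that of Eif3a, the large scaffold subunit, went from 15.1% ± 0.490 to 16.5% ± 0.0839. The shares of Eif3a, Eif3b, Eif3c, Eif3d and Eif3g were higher and those of Eif3e, Eif3f, Eif3h and Eif3k lower in every IL-3 library than in any PBS library. The other 5 overlapped. Each of the 9 shares without overlap had the smallest possible exact permutation p of 0.1 (adjusted p = 0.156 over the 14 shares). For comparison, 48.2% of all genes had CPM without overlap. The shares of a library add up to a whole, so a fall in some raises the rest. Eif3a and Eif3c gained in share but were not called in CPM (edgeR adjusted p = 0.0835 and 0.122).

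**Figure D3:**
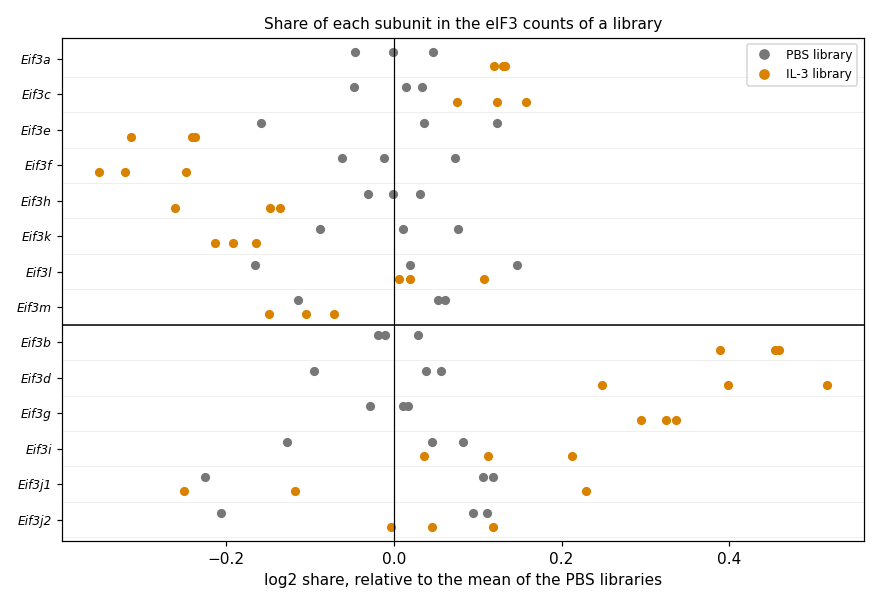
The log2 of the share of all eIF3 reads, less the PBS mean, is plotted for the 14 eIF3 genes with a point per library, the 8 core genes above the line and the 6 others below it, PBS in gray and IL-3 in orange. The mean share of Eif3f falls from a mean of 18.2% to 14.7%, while Eif3b goes from 5.23% to 7.07% and Eif3d from 4.16% to 5.45%.

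The helicase eIF4A unwinds the leader of the mRNA. Of the 7 tested genes of the eIF4A family and its cofactors, 3 rose and 1 fell, or 2 and 1 by library totals, against 18.0% and 20.2% of all genes. Eif4a2 lies at chr16:23107444-23114136 on the plus strand and measured 99.5, 104 and 105 CPM in PBS and 139, 140 and 144 CPM in IL-3. The groups were far apart, with a log2 difference of 0.45 and a standard error of 0.0562 (edgeR adjusted p = 8.68e-06). Eif4a1, the main initiation helicase, measured 419, 416 and 395 CPM in PBS and 551, 550 and 499 CPM in IL-3, a log2 difference of 0.38 (edgeR adjusted p = 3.12e-05). In Eif4a1, 28.4% of the 50-base stretches recur elsewhere, mostly in Eif4a-ps4, a pseudogene row outside the rule whose own log2 difference was 0.44. Eif4a3, which serves the exon junction complex rather than initiation, was 0.26 higher (edgeR adjusted p = 0.00606), a call lost by library totals at 0.10. Its relatives Eif4a3l1 (0.50) and Eif4a3l2 (-0.16), with few reads, did not pass the test.

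The cofactor Eif4b, which stimulates the helicase, moved against it. This gene at chr15:102073773-102097173 on the plus strand measured 126, 129 and 136 CPM in PBS and 98.7, 103 and 100.1 CPM in IL-3, with all IL-3 libraries lower. Eif4b had a log2 difference of -0.37 with a standard error of 0.0576 (edgeR adjusted p = 8.73e-05). Eif4h, a cofactor related to it, was at 0.10 and did not pass the test, and was at -0.06 by library totals. The ratio of Eif4a1 to Eif4a2 overlapped between the groups (log2 difference -0.08, exact permutation p = 0.4), whereas that of Eif4a1 to Eif4a3 was higher in every IL-3 library by a small amount (log2 difference 0.12, exact permutation p = 0.1, adjusted p = 0.156).

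Of the eIF4G scaffolds, Eif4g1 and Eif4g2 rose. Eif4g2, a shorter relative that lacks the eIF4E-binding part and lies at chr7:111067750-111083030 on the minus strand, had CPM of 447, 460 and 443 in PBS and 607, 583 and 601 in IL-3. The groups did not overlap, and the log2 difference was 0.41 with a standard error of 0.0462 (edgeR adjusted p = 3.40e-06). Eif4g1, the main scaffold, was 0.31 higher (edgeR adjusted p = 0.000329), or 0.15 by library totals, where its adjusted p was 0.0526. Eif4g3 was at 0.13, or -0.03 by library totals, and did not pass the test (edgeR adjusted p = 0.133). The ratio of Eif4g1 to Eif4g2 was lower in every IL-3 library (log2 difference -0.09, exact permutation p = 0.1, adjusted p = 0.156), and that of Eif4g1 to Eif4g3 overlapped (0.18, p = 0.3).

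The cap-binding protein gene Eif4e, at chr3:138526179-138559696 on the plus strand, measured 34.9, 38.2 and 37.6 CPM in PBS and 43.3, 42.2 and 46.0 CPM in IL-3. The IL-3 libraries were all higher, by a modest amount. For Eif4e the log2 difference was 0.25 with a standard error of 0.0799 (edgeR adjusted p = 0.0217), and the adjusted p was 0.0856 without PBS replicate 1, 0.0888 without IL-3 replicate 3 and 0.454 by library totals. The other cap-binding genes, Eif4e2 (-0.03), which is tied to repression, Eif4e3 (-0.06) and the germ-line form Eif4e1b (0.77, at very low counts), did not pass the test, and Eif4e3 was called lower by library totals. The ratios of Eif4e to Eif4e2 (log2 difference 0.27) and to Eif4e3 (0.31) were higher in every IL-3 library than in any PBS library (exact permutation p = 0.1 each, adjusted p = 0.156).

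The strongest fall among well-covered members was that of Eif4ebp1, which encodes the 4E-binding protein that holds eIF4E away from eIF4G until mTOR phosphorylates it. This gene at chr8:27260329-27276674 on the plus strand measured 54.6, 59.4 and 57.1 CPM in PBS and 37.2, 38.2 and 38.2 CPM in IL-3. The IL-3 libraries lay within about 1 CPM of each other and well below the PBS libraries. For Eif4ebp1 the log2 difference was -0.59 with a standard error of 0.0735, a fold of 0.665 (edgeR adjusted p = 9.56e-06). Its paralog Eif4ebp2 went up, with 117, 115 and 116 CPM in PBS and 139, 144 and 125 CPM in IL-3. That log2 difference was 0.23 with a standard error of 0.0627 (edgeR adjusted p = 0.00950), and the call was lost without IL-3 replicate 2 (adjusted p = 0.0682) and by library totals (adjusted p = 0.504). Eif4ebp3 (-0.33), which shares 65.5% of its 50-base stretches with other transcripts, and the eIF4E transporter gene Eif4enif1 (0.24) were not called. Without PBS replicate 3, Eif4enif1 was called at 0.43 (edgeR adjusted p = 0.0423).

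The balance of Eif4e and its inhibitors differed between the paralogs. The log2 ratio of Eif4e to Eif4ebp1 counts was -0.64, -0.63 and -0.60 in the PBS libraries and 0.22, 0.14 and 0.27 in the IL-3 libraries. The ratio was higher in every IL-3 library, by 1.79-fold (log2 difference 0.84, exact permutation p = 0.1, adjusted p = 0.156). The ratio of Eif4e to Eif4ebp2 barely moved (log2 difference 0.02, exact permutation p = 0.9). On the per-length scale, which uses no TMM factors, Eif4ebp1 went from 54.1 ± 2.52 to 33.0 ± 0.580 (SD, n = 3). There Eif4ebp2 was at 38.0 ± 0.696 in PBS and 40.9 ± 3.84 in IL-3, and its groups overlapped. IL-3 library 3, at 36.4, lay below every PBS library for Eif4ebp2. The level of Eif4e in PBS was 14.0. These values rest on longest transcripts of 1997, 5784 and 4991 bases, and the order of these 3 genes may change with the transcript chosen.

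**Figure D4:**
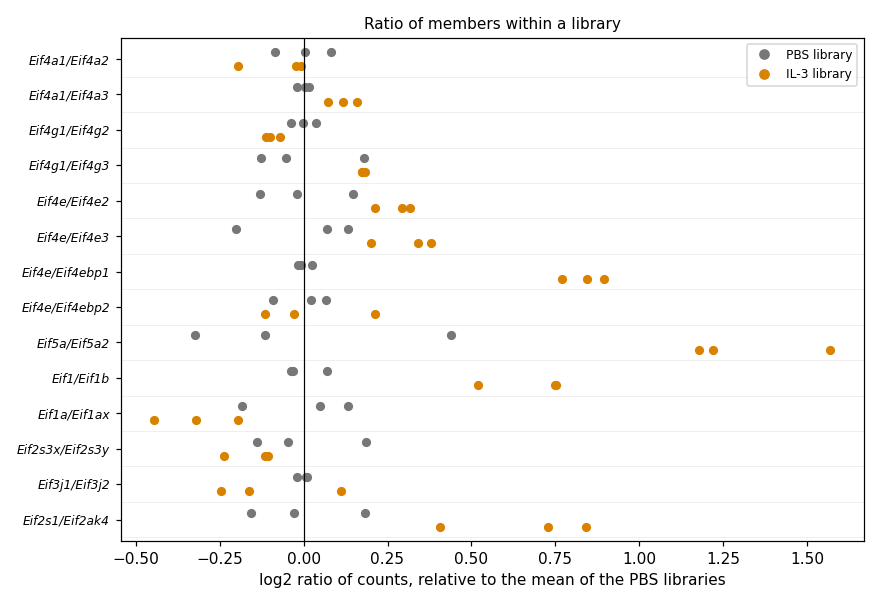
The log2 ratio of counts within each library is plotted for the 14 pairs of members, less the mean of the PBS libraries, with a point per library. Of the 14, 7 lie higher and 2 lower in IL-3 without overlap, with Eif5a/Eif5a2 at 1.32 and Eif4e/Eif4ebp1 at 0.84 farthest from 0. Over all genes, 48.2% had CPM without overlap between the groups.

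The last group holds late-acting factors. Besides Eif5a and Eif5a2, Eif6, which keeps the large ribosomal subunit from joining too early, was 0.19 higher (edgeR adjusted p = 0.0227), with adjusted p of 0.0626 to 0.0790 when PBS replicates 2 or 3 or IL-3 replicates 1 or 3 were left out and 0.743 by library totals. Eif5, the GTPase activator of eIF2, was at -0.07 and Eif5b, the subunit-joining GTPase, at 0.07, and neither passed the test. By library totals Eif5 was called lower, at -0.23.

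Per length, the eIF3 core subunit gene Eif3h (246 in PBS) and the helicase gene Eif4a1 (245) followed Eif1 and Eif5a and did not differ from each other beyond their spread in PBS, though in IL-3 they stood at 198 ± 12.4 and 293 ± 23.5 (SD, n = 3), with Eif3f at 208 and Eif5 at 172 next in PBS. The lowest tested members with a length were Eif4e1b at 1.37, Eif5a2 at 3.18, Eif4ebp3 at 3.34 and Eif2b3 at 3.68 on the same scale. All members together took 0.601%, 0.604% and 0.617% of counts in the PBS libraries and 0.667%, 0.649% and 0.627% in the IL-3 libraries, higher in each (exact permutation p = 0.1). Without Eif1 and Eif5a, an alternative chosen after seeing the values, the shares were 0.484%, 0.485% and 0.494% in PBS and 0.490%, 0.478% and 0.453% in IL-3, and the groups overlapped (exact permutation p = 0.3).

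Other genes of the pathway were taken from lists, to be read against the 38.2% of all genes called, 18.0% higher and 20.2% lower. Of 11 tested genes of other initiation and recycling factors, 7 were higher and none lower (median log2 difference 0.28), or 4 and none by library totals and 4 and none without IL-3 replicate 2. Among them Abce1, the ATPase that splits ribosomes for reuse, was 0.75 higher (edgeR adjusted p = 7.98e-06), the helicase gene Ddx3x was 0.36 higher (edgeR adjusted p = 6.63e-05), and Bzw1, a competitor of eIF5, was 0.32 higher (edgeR adjusted p = 0.000235). Of 12 repressors and regulators of initiation, 2 were higher (16.7%) and 4 lower (33.3%), or 2 and 6 by library totals. The list mixes genes that restrain initiation with genes that favor it, so these are not counts of repressors. These include Pdcd4, an inhibitor of eIF4A, at -0.86 (edgeR adjusted p = 8.38e-06), Impact, an inhibitor of the kinase Eif2ak4, at -0.86 (edgeR adjusted p = 3.49e-07), and Ppp1r15b, a subunit of the phosphatase for eIF2 alpha, at 0.44 (edgeR adjusted p = 1.31e-05).

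In the mTORC1 and S6 kinase list, 1 of 11 genes was higher and 2 were lower, or 1 and 4 by library totals; the share called (27.3%) was below that of all genes. Deptor, an mTOR inhibitor, was at -0.59 (edgeR adjusted p = 0.00677) and Rps6kb2, an S6 kinase, at 0.43 (edgeR adjusted p = 0.00146). Akt1s1, an inhibitor within mTORC1, was at -0.32 (edgeR adjusted p = 0.0198), or 0.0764 with PBS replicate 1 and 0.111 with IL-3 replicate 3 left out. Among 10 tested elongation and termination factors 4 were higher and 1 lower, or 1 and 4 by library totals. Etf1, the release factor, was at 0.73 (edgeR adjusted p = 2.06e-08) and Eef2k, the kinase that blocks elongation factor 2, at -0.61 (edgeR adjusted p = 9.12e-05), while the release factor Gspt1 was at 0.27 (edgeR adjusted p = 0.00373), or 0.11 and uncalled by library totals. In the list of 6 genes for the hypusine of eIF5A and the polyamine it is made from, 1 was higher. This was Srm, spermidine synthase, which went from 21.7 ± 2.78 to 59.8 ± 3.80 CPM (SD, n = 3). Its log2 difference was 1.46 (edgeR adjusted p = 5.83e-09). By library totals 1 was higher and 1 lower, the latter Odc1 at -0.22 (edgeR adjusted p = 0.0498). Among 8 mitochondrial translation factors Tsfm was called, at 0.33 (edgeR adjusted p = 0.0409). That call was lost by library totals (adjusted p = 0.313), with iterated TMM (0.0576), in the DESeq2 Wald test (0.0764) and with no filter on low counts (0.0508). The same held when any library other than PBS replicate 2 was left out (0.0525 to 0.144). By library totals Mtrf1 was called lower instead, at -0.78 (edgeR adjusted p = 0.0308).

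**Figure D5:**
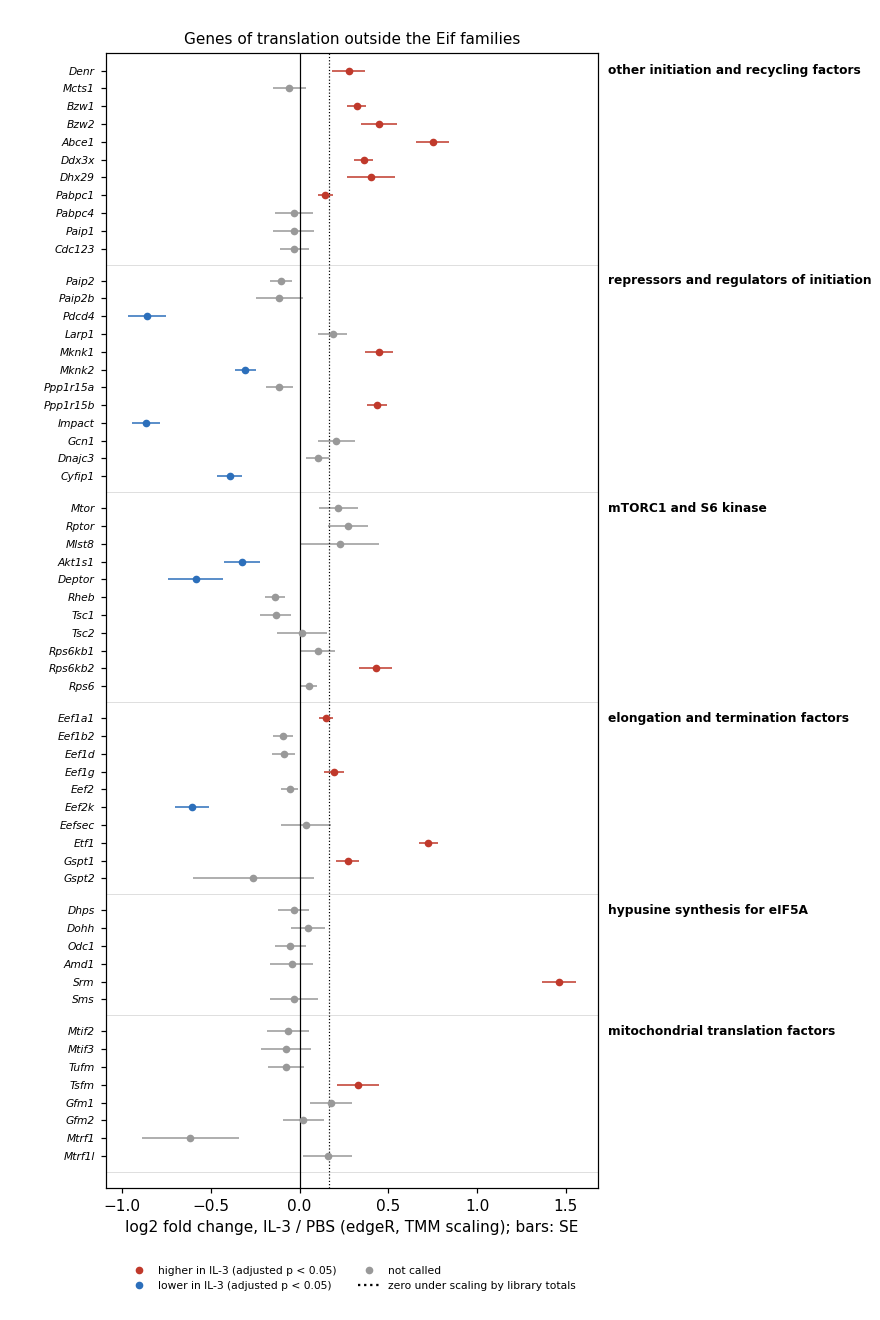
The log2 difference (IL-3 minus PBS) of the other genes of translation is plotted by list, each point being a gene with its standard error as a bar and its color showing the call; the dotted line marks where 0 lies by library totals. Srm at 1.46 is the highest point, and Impact and Pdcd4, both at -0.86, are the lowest.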

How the data were processed

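The authors deposited raw counts per gene for 6 libraries of bulk RNA-seq, made from amplified cDNA after trimming with cutadapt 3.4 and alignment with Bowtie2. The submitters' processing notes name GRCm39 whereas the study's methods name an older build, so coordinates here come from GENCODE M21 and RefSeq on GRCm38 and rest on gene symbols, and the counting's use of strand was not given in the sources used here. No sample column was left unmapped. From the deposited counts, genes passing edgeR's filterByExpr were scaled with TMM and tested by the quasi-likelihood test, 3 libraries against 3, with Benjamini-Hochberg adjustment over all 16675 genes and a threshold of 0.05 (R 4.3.3, edgeR 4.0.16). The members, lists, ratios and alternatives were chosen with earlier results of these data known.

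Members given in full were, by rule, the member with the smallest adjusted p in each complex, the called one with the smallest adjusted p in the other direction, and any called member with a log2 difference of at least 0.5 in size. In each pathway list up to 3 called genes with the smallest adjusted p were named. CPM are TMM-scaled. Ratios and shares used raw counts (ratios with 0.5 added to each) and two-sided exact permutation tests. Per-length levels divided counts by the longest annotated transcript, and 56 members had a length. Shared sequence was the percent of 50-base stretches of that transcript found in another gene's transcripts. Alternatives were DESeq2 1.42.0 (size factors or Wald test), limma 3.58.1 voom, library totals, iterated TMM, other filters on low counts, a replicate block and each library left out. Libraries with the same number did not deviate together (correlations 0.0106, -0.0197 and -0.0314), so the numbers were not taken as pairs. On simulated counts with 188 changed genes among 16344, the test recovered 76.6%, all with the right sign. That share of changed genes was far below the 38.2% called in the data. The simulation therefore does not measure recovery, or the effect of scaling, when so many genes change. Each library differed from the others by more than counting noise. Intervals of counting error were not used, since the spread between libraries was larger.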

Additional observations from a re-analysis of the deposited data

How the results depend on the processing

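Of the 28 called members, 11 were called under every alternative: Eif1, Eif1ax, Eif2s1, Eif3b, Eif4a1, Eif4a2, Eif4g2 and Eif5a higher, and Eif3f, Eif4b and Eif4ebp1 lower. No called member changed sign. Library totals moved results most: 1698 genes and 8 members were higher, 17 members were lower, the median of the members was -0.058, and 18 of the 28 calls were kept. Of called genes, 47.1% were higher with TMM and 25.2% with library totals. The median of the members was 0.080 with iterated TMM and 0.12 with no filter on low counts. Leaving out 1 library gave medians from 0.051 to 0.12, with 4 to 8 members lower and 15 to 17 higher; the 4 came without PBS replicate 3. The replicate block kept 27 of 28 calls, losing Eif2b5 (0.30, adjusted p = 0.0554) and no other.

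Uncalled members changed sign around 0. By library totals these were Eif1ad (-0.078), Eif1b (-0.13), Eif2s2 (-0.0036), Eif2s3x (-0.073), Eif2ak3 (-0.024), Eif3a (-0.041), Eif3c (-0.051), Eif3i (-0.050), Eif3j2 (-0.12), Eif3l (-0.13), Eif4h (-0.058), Eif4g3 (-0.030) and Eif5b (-0.10). Eif2b1 was at 0.0031 with DESeq2 size factors, 0.011 with no filter on low counts, 0.0039 in the DESeq2 Wald test, 0.0070 in limma-voom and 0.0085 with the replicate block.

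With each library left out in turn, the log2 difference ran from -0.019 to 0.064 for Eif1b, -0.13 to 0.14 for Eif2b1, -0.0010 to 0.36 for Eif2ak3, -0.16 to 0.030 for Eif3j1, -0.052 to 0.092 for Eif3j2, -0.043 to 0.11 for Eif3l, -0.076 to 0.0062 for Eif4e2, -0.11 to 0.0037 for Eif4e3 and -0.0040 to 0.13 for Eif5b. The cause of these changes was not tested. The ratios moved by less than 1 SD between libraries with 5 counts added in place of 0.5. Low counts limit the precision for Eif4a3l1, Eif4a3l2, Eif4e1b, Eif4ebp3, Eif5a2 and Eif2b3, among others.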
